A study of Mus musculus with 14 samples.

Results

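Transcripts of TFIID and TBP-related genes were measured by RNA-seq of single mouse embryos made by somatic cell nuclear transfer (SCNT), in which the nucleus of a cumulus cell replaces that of the egg. The genes were Tbp, Tbpl1, Tbpl2, Taf1, Taf4b, Taf5, Taf7, Taf9, Taf9b and Taf12, listed by name, and Taf9 was put on the list because of its rise with the combined treatment described here. Of the 10 genes, 9 were paired with at least 1 entry of the deposited tables, out of 20242 gene symbols in all, and Taf1, the largest TFIID subunit, was not analysed here. The paired genes other than Tbpl2 (8 of 9) were among the 7518 genes with at least 1 RPKM (reads scaled to counted length and to the total of counted reads) in at least 3 of the 14 embryos, and these were tested.

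All 14 embryos were of the B6D2F1 strain, were activated with strontium in the presence of cytochalasin B, were cultured in medium with deionized bovine serum albumin, and were collected at the two-cell stage at 28 h. The 3 control SCNT embryos received no small molecule. Trichostatin A (TSA), an inhibitor of histone deacetylases, was given at 50 nM from 0 to 8 h of activation in 3 embryos, here TSA(0-8h), and vitamin C (VC) at 10 µg/ml was given to 1 embryo from 0 to 8 h, VC(0-8h), and to 2 embryos from 8 to 15 h, VC(8-15h). Both molecules were given from 0 to 8 h in 2 embryos, TSA(0-8h)+VC(0-8h), and TSA was followed by VC in 3 embryos, TSA(0-8h)+VC(8-15h). Each library was made from part of the RNA of 1 embryo, and a transcript missing from 1 blastomere and a lower amount in both blastomeres cannot be told apart.

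TFIID is the complex that recognizes the core promoter and starts the assembly of RNA polymerase II on it. It consists of the TATA-binding protein, encoded by Tbp, and a set of TBP-associated factors, the TAFs, several of which fold like histones and bind each other in pairs. Vertebrates have further TBP-like genes, Tbpl1 and Tbpl2, and cell type-specific copies of TAFs, among them Taf4b and Taf9b. Tbpl2 takes the place of Tbp in growing mouse oocytes, and Tbp is taken up again as the embryo starts its own transcription, which in the mouse is at the two-cell stage.

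Between 3021540 and 13589389 reads were counted per embryo, and between 3105 and 6163 genes reached 1 RPKM. The 15 oocyte markers summed to 290.7 to 1744.5 RPKM in an embryo, but single markers differed widely. Bmp15, an oocyte growth factor and the marker with the highest mean, was between 91.3 and 519.5 RPKM. Oosp1 was 2.44 to 684 RPKM and Dppa3 0.208 to 776 RPKM. H1f8 reached 1 RPKM in only 3 embryos, and Figla was at 0 in all 14. The 14 paired two-cell markers summed to 8.35 to 410.7 RPKM in control, 179.8 to 434.7 in TSA(0-8h), 233.7 to 621.8 in TSA(0-8h)+VC(0-8h), 389.2 to 1174.8 in VC(8-15h) and 457.3 to 687.8 in TSA(0-8h)+VC(8-15h) embryos, and to 649.4 RPKM in the VC(0-8h) embryo. The 15 cumulus cell markers other than Nr5a2, which embryos also use, summed to at most 2.01 RPKM. Nr5a2 itself was 1.09 to 92.9 RPKM over the 14 embryos, and Has2, the cumulus cell marker with the next highest mean, at most 1.82 RPKM. Among the two-cell markers, Zfp352 was 0.326 to 225 RPKM over the 14 embryos and Tcstv1 0.403 to 229 RPKM. Tdpoz1 was 0.0801 to 99.3 RPKM and Tdpoz4 0 to 198 RPKM. The median difference over all genes tested was 0.38 for TSA(0-8h)+VC(8-15h) minus control, -0.24 for TSA(0-8h) minus control and 0.71 for TSA(0-8h)+VC(8-15h) minus TSA(0-8h) on the log2(RPKM+1) scale. With quantile normalization these medians were -0.03, -0.01 and 0.03. The part of these shifts in the results was not tested.

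Taf9 shares its first base of transcription with Ak6, a nuclear adenylate kinase gene named here after its values were seen. In mm9, the build of the deposited values, Taf9 lies on the plus strand at chr13:101421298-101426014, and the transcript of Ak6 runs from the same base to 101436368 and has the first and the second exon of Taf9 as its own. The RefSeq promoter windows of the 2 genes (GRCm38.p6, chr13:100651093-100651392, plus strand) were identical. The last 250 bases before the shared start are shown because they stand before both genes, with the first 10 transcribed bases in capitals.

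Taf9 and Ak6: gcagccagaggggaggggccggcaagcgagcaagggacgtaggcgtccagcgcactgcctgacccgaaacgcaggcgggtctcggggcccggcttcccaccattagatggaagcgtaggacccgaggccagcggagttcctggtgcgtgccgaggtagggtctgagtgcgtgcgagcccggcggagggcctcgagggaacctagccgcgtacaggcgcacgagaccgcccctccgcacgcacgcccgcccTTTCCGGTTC

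For Tbp and the TBP-like genes, whose transcripts were compared within each embryo, the 60 bases before the start and the first 10 transcribed bases (capitals) are shown in the same build. They lie on the plus strand at chr17:15499828-15499897 for Tbp, and on the minus strand at chr10:22731438-22731507 for Tbpl1 and at chr2:24096586-24096655 for Tbpl2.

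Tbp: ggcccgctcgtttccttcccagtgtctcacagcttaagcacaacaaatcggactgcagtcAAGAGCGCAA

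Tbpl1: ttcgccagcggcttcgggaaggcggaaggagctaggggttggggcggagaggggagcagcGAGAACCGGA

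Tbpl2: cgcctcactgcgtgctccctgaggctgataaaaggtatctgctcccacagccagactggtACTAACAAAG

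The RefSeq windows, from 250 bases before to 50 bases after a start, covered 8 of the 10 genes with 10 windows. The letters TATAAA, the core of the TATA box, were searched on both strands and were present in 1 of the 10 windows, that of Taf5, at 246 bases before the start (position -246). Of all 32851 windows, 13.6% held these letters, and in 2.50% they began 20 to 40 bases before the start, where none of the 10 windows held them.

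Taf9, a histone-fold TAF, had the highest mean log2(RPKM+1) of the 9 genes over the 14 embryos, which include those that chose it. By median RPKM, Taf9 at 8.35 was below Taf12 at 14.6 and Taf4b at 12.3. The RPKM of Taf9 was 0.302, 0.596 and 7.11 in the controls and 395.4, 386.6 and 108.2 with TSA(0-8h)+VC(8-15h). It was 1554.9, 3.35 and 1.88 with TSA(0-8h), 6.27 and 96.9 with TSA(0-8h)+VC(0-8h), 3.23 and 78.5 with VC(8-15h) and 9.60 in the VC(0-8h) embryo. Every TSA(0-8h)+VC(8-15h) embryo was thus above every control embryo, as the choice of the gene fixed, while a single TSA(0-8h) embryo held the highest value of all.

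**Figure D1:**
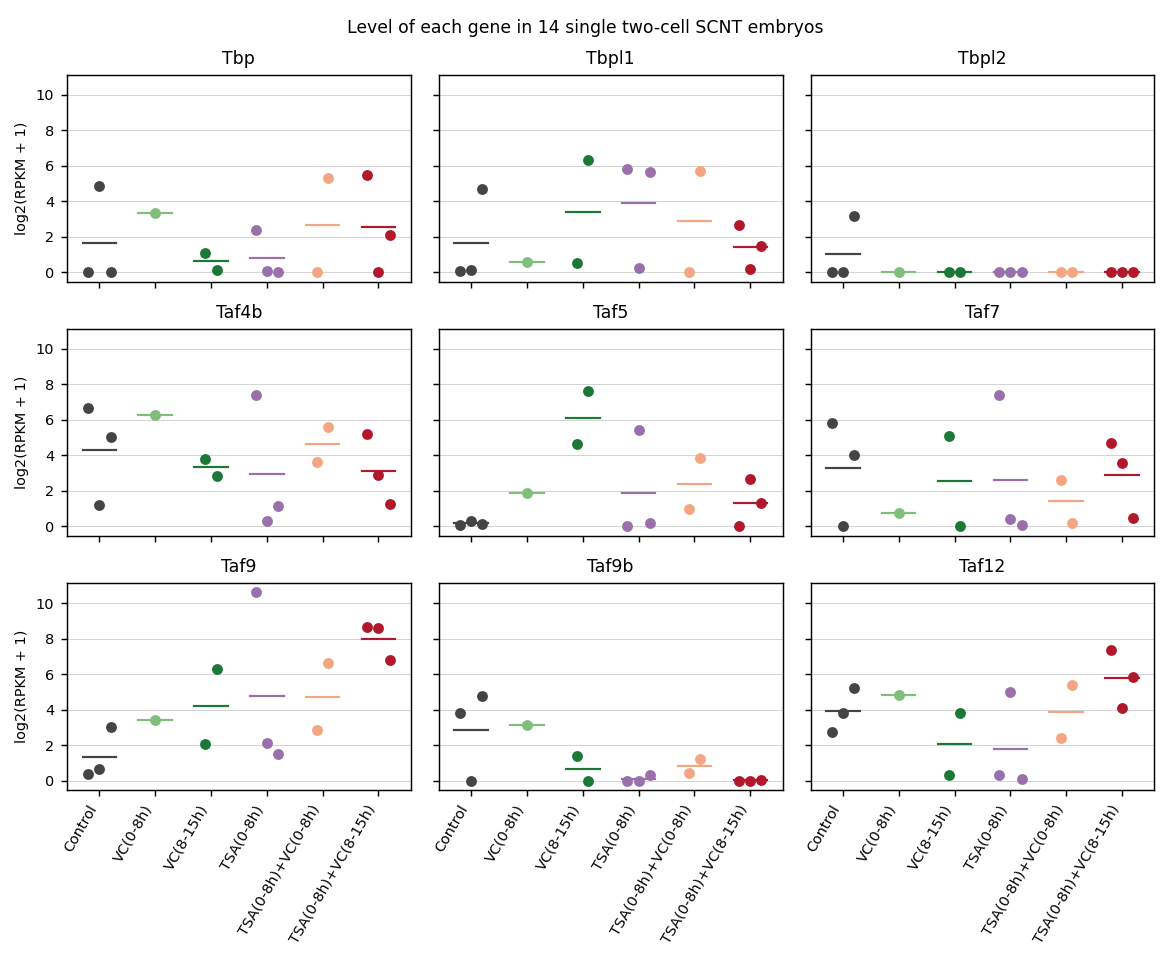
Level of 9 genes in the 14 embryos, as log2(RPKM+1), by treatment; each point is 1 embryo and each bar the mean of its group. In most panels embryos of the same treatment lie both near 0 and above 4, and Taf9 is the one gene of the 9 whose TSA(0-8h)+VC(8-15h) embryos all lie above its control embryos.

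The mean of Taf9 was 296.7 ± 163.3 RPKM (SD, n = 3) with TSA(0-8h)+VC(8-15h) and 2.67 ± 3.85 RPKM (SD, n = 3) in the controls. The difference on the log2(RPKM+1) scale was 6.64 (SE 1.37). It was used to choose the gene and is given with no test. In the 3 pools of libraries it was 8.25, 7.92 and 3.75, and groups that do not overlap fix all 3 as positive. The difference was 3.39 for TSA(0-8h) minus control, 2.84 for VC(8-15h) minus control and 3.25 for TSA(0-8h)+VC(8-15h) minus TSA(0-8h), and these comparisons share embryos with the one that chose the gene. Each rested in part on single embryos. The first was 0.47 without TSA(0-8h) replicate 1, the second 0.72 without VC(8-15h) replicate 2, and the third ranged from 1.64 without TSA(0-8h) replicate 3 to 6.18 without TSA(0-8h) replicate 1. By pool, TSA(0-8h) minus control was 10.2, 1.45 and -1.49, and TSA(0-8h)+VC(8-15h) minus TSA(0-8h) was -1.97, 6.48 and 5.25. In the comparison that shares no chosen group, TSA(0-8h)+VC(0-8h) minus TSA(0-8h), Taf9 differed by -0.01 (SE 2.24; limma, adjusted p = 1.0; exact permutation test, two-sided p = 1.0), and the sign of this value turned with the pseudocount, with the length used for its entries and with limma-voom.

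The RPKM of Taf9 is a sum of 2 entries, 1 for each annotated transcript, named here by its start of transcription. The entry with the first start was counted over 1223 bases, and the entry with the second start over 111 bases, which is the length of its only exon that the other entry lacks (chr13:101421562-101421672 in mm9). The Ak6 entry was counted over 792 bases, the summed length of its 3 exons outside Taf9, so the shared exons were counted for the Taf9 entry with the first start. Reads from the 2 exons shared with Ak6, 103 and 93 bases long, therefore could not be split between the genes. The exons of 93 and 1026 bases also belong to the Taf9 transcript with the second start. Their reads were counted for the entry with the first start, from whichever start they came. The entry with the first start therefore does not measure use of that start alone.

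**Figure D2:**
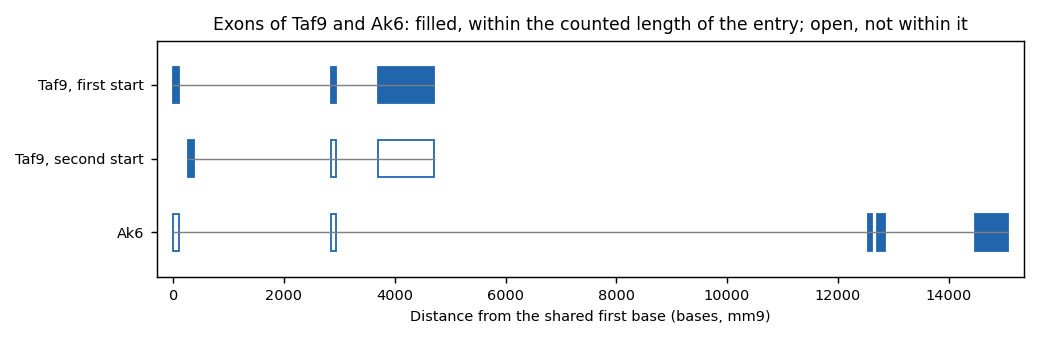
Exons of the 2 Taf9 transcripts and of Ak6 in mm9, drawn to scale by distance from the shared first base in bases. Filled boxes lie within the counted length of an entry and open boxes do not; the entry with the second start was counted on 111 bases and that of Ak6 on 792 bases.

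On the entry with the first start, 2, 5 and 52 reads were counted in the controls and 1219, 3675 and 1625 with TSA(0-8h)+VC(8-15h). On the entry with the second start, 440 reads were counted in TSA(0-8h) replicate 1, 80 in TSA(0-8h)+VC(8-15h) replicate 1 and 6 in control replicate 3, and none in the other 11 embryos. Because of its short counted length, this entry made up 84.4% of the summed RPKM in TSA(0-8h) replicate 1, 42.0% in TSA(0-8h)+VC(8-15h) replicate 1 and 56.0% in control replicate 3. The entry with the first start, taken by itself, differed by 6.71 between TSA(0-8h)+VC(8-15h) and the controls. It differed by 3.88 between TSA(0-8h)+VC(8-15h) and TSA(0-8h) embryos. For the entry with the second start these differences were 1.69 and -0.99. They are differences of entries, and which start was used was not tested.

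**Figure D3:**
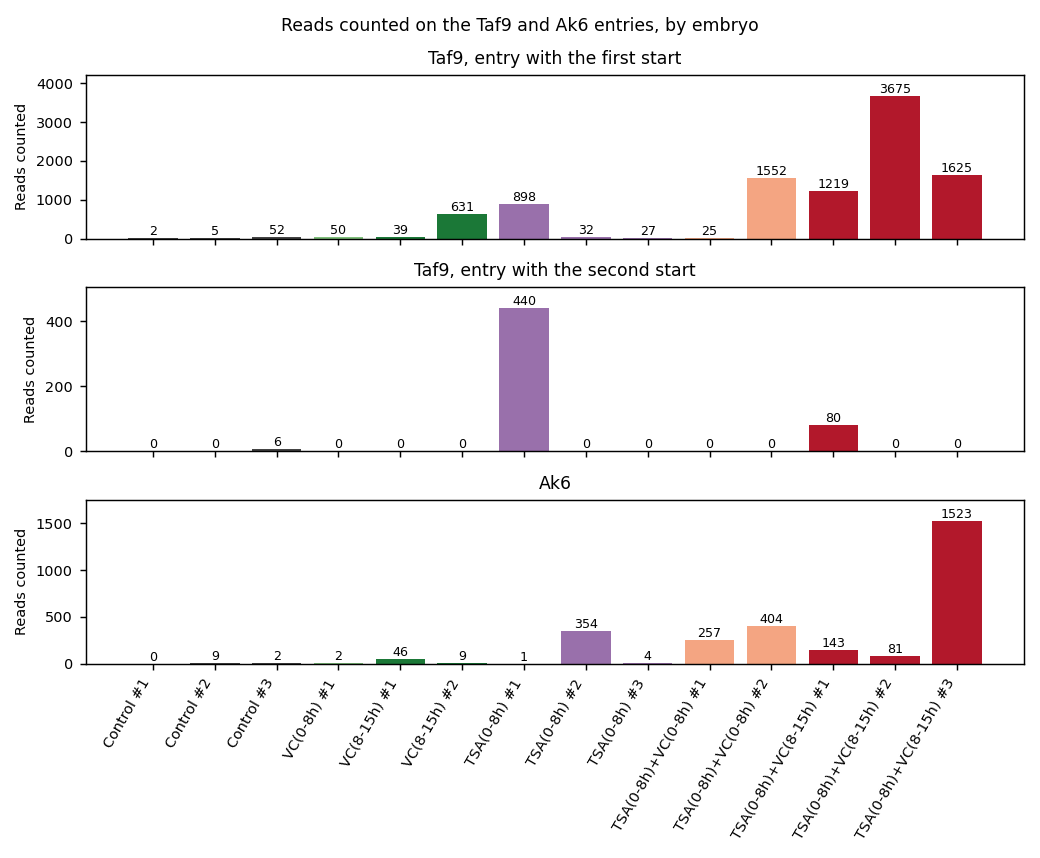
Reads counted in each of the 14 embryos on the 2 Taf9 entries and on Ak6; bars are coloured by treatment and the number of reads stands above each. The Taf9 entry with the first start holds 1219 to 3675 reads with TSA(0-8h)+VC(8-15h) and at most 52 in the controls.

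With the reads of both entries divided by their summed length, a setting chosen after seeing the data, Taf9 was 332 RPKM in TSA(0-8h) replicate 1, 224 in TSA(0-8h)+VC(8-15h) replicate 1 and 354 in replicate 2, so that the highest value passed to a TSA(0-8h)+VC(8-15h) embryo. Ak6 was 0, 1.66 and 0.186 RPKM in the controls and 41.6, 13.2 and 157 RPKM with TSA(0-8h)+VC(8-15h). These groups did not overlap, as was the case for 11.7% of all genes tested, in either direction. With TSA(0-8h), Ak6 was 0.418, 57.2 and 0.430 RPKM, so the TSA(0-8h) embryo with the most Taf9 had 1 read on Ak6. The difference of Ak6 between TSA(0-8h)+VC(8-15h) and the controls was 4.96 (SE 1.95; limma, unadjusted p = 0.0260, adjusted p = 0.720), and Spearman's rho between Ak6 and Taf9 over the 14 embryos was 0.31. Ak6 was tested after its values were seen.

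By Spearman's rho of log2(RPKM+1) over the 14 embryos, the genes most like Taf9 among those tested were Polr3d, a subunit of RNA polymerase III, and Abcf1, a translation factor of the ABC family, both at 0.85, and 1700123O20Rik at 0.81. Their points share the libraries and treatments, and rho is given as a description. Polr3d was 190 RPKM in TSA(0-8h) replicate 1, where Taf9 was highest. It was 10.4 to 40.2 RPKM with TSA(0-8h)+VC(8-15h), which overlapped the 0.0722 to 20.9 RPKM of the controls. Abcf1 was 99.0 to 230 RPKM with TSA(0-8h)+VC(8-15h) and 0.786 to 63.5 RPKM in the controls. 1700123O20Rik was only 0.0681 to 1.90 RPKM with TSA(0-8h)+VC(8-15h) and at 0 in the controls, so its rho rests in part on ties at 0.

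Taf9b encodes a TAF closely related to that of Taf9. It was 12.9, 0 and 26.1 RPKM in the controls, 7.64 RPKM in the VC(0-8h) embryo and 1.57 and 0 RPKM with VC(8-15h). It was at 0 in 2 of the 3 TSA(0-8h) embryos and at 0.270 RPKM in the other, and at 0 in 2 of the 3 TSA(0-8h)+VC(8-15h) embryos and at 0.0323 RPKM, or 1 read, in the other. Embryos with TSA(0-8h)+VC(0-8h) held 0.365 and 1.33 RPKM. Among the embryos that received TSA, 1.33 RPKM was thus its highest value, but 1 control embryo was at 0 as well, and the groups overlapped.

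The difference of Taf9b was -2.84 (SE 1.57) for TSA(0-8h)+VC(8-15h) minus control (limma, unadjusted p = 0.0960, adjusted p = 0.720) and -2.74 (SE 1.85) for TSA(0-8h) minus control (limma, adjusted p = 0.794), and both comparisons use the same control embryos. Within an embryo, Taf9b was below Taf9 in 12 of 14 embryos and above it in 2, control replicates 1 and 3. The mean within-embryo difference was -3.47 ± 4.25 (SD, n = 14), which is given with no test since Taf9 was chosen on its values, and it was 1.49 in the 3 control embryos alone.

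Taf12, a histone-fold TAF that pairs with Taf4 or Taf4b, was 5.60, 13.2 and 36.4 RPKM in the controls and 161, 16.1 and 55.5 RPKM with TSA(0-8h)+VC(8-15h). It was 0.245, 30.7 and 0.0630 RPKM with TSA(0-8h), where 2 of the 3 values were single reads. It was 4.31 and 40.4 RPKM with TSA(0-8h)+VC(0-8h), 0.225 and 13.1 RPKM with VC(8-15h) and 27.5 RPKM in the VC(0-8h) embryo. The difference was 3.95 (SE 1.87) for TSA(0-8h)+VC(8-15h) minus TSA(0-8h) (limma, unadjusted p = 0.0635, adjusted p = 0.696; exact permutation test, two-sided p = 0.2), and TSA(0-8h) replicate 2 lay above the lowest TSA(0-8h)+VC(8-15h) embryo. It was 1.83 (SE 1.37) for TSA(0-8h)+VC(8-15h) minus control (limma, adjusted p = 0.720).

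Taf4b encodes a copy of Taf4 found in gonads and oocytes. It was the most widely detected of the 9 genes, with at least 3 reads in all 14 embryos and at least 1 RPKM in 13. Its RPKM was 101.3, 1.27 and 31.3 in the controls, 165.3, 0.224 and 1.24 with TSA(0-8h) and 36.6, 6.35 and 1.42 with TSA(0-8h)+VC(8-15h). It was 11.5 and 47.2 RPKM with TSA(0-8h)+VC(0-8h), 13.1 and 6.12 with VC(8-15h) and 77.6 in the VC(0-8h) embryo, so values near 1 and well above 10 stood in the same groups. The widely used paralog Taf4, the scaffold of TFIID, ranged from 0.0344 to 169.5 RPKM over the 14 embryos. Within an embryo, Taf4b minus Taf4 was -0.20 ± 2.81 (SD, n = 14), with Taf4b above Taf4 in 7 embryos and below it in 7 (exact permutation test over sign changes, two-sided p = 0.806, adjusted over 3 pairs p = 0.806).

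Taf7, which binds TAF1 and restrains its activity, was 55.6, 0 and 15.2 RPKM in the controls, 165.1, 0.349 and 0.0773 with TSA(0-8h) and 24.9, 10.9 and 0.395 with TSA(0-8h)+VC(8-15h). It was 5.20 and 0.139 RPKM with TSA(0-8h)+VC(0-8h), 32.7 and 0 with VC(8-15h) and 0.711 in the VC(0-8h) embryo. Taf7 had the largest spread within groups among the tested genes of the list, an SD of 3.10 on the log2(RPKM+1) scale. The difference between TSA(0-8h)+VC(8-15h) and TSA(0-8h) embryos was 0.28 (SE 2.50; limma, adjusted p = 0.986) for Taf7 and 0.19 (SE 2.36; limma, adjusted p = 0.992) for Taf4b, and both turned negative under quantile normalization and median-ratio scaling. Taf4b and Taf7 had the highest rho of the 28 pairs among the 8 tested genes, at 0.70 over the 14 embryos, and TSA(0-8h) replicate 1 was the highest embryo for both. Over the 28 pairs, rho ranged from -0.51, between Taf5 and Taf7, to this value, with a median of 0.03.

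Taf5, a WD40-repeat subunit that is part of the core of TFIID, was 0.0566, 0.224 and 0.113 RPKM in the controls, at most 5 reads each. It was 23.8 and 193.7 RPKM with VC(8-15h), 764 and 4147 reads, which both lay above every control embryo. The difference was 5.94 (SE 2.19) for VC(8-15h) minus control (limma, unadjusted p = 0.0102, adjusted p = 0.846), and the exact permutation test gave the smallest p this design allows (3 against 2, two-sided p = 0.2). Taf5 was 0, 41.6 and 0.131 RPKM with TSA(0-8h), 0.941 and 13.7 after TSA(0-8h)+VC(0-8h), 0, 5.45 and 1.5 after TSA(0-8h)+VC(8-15h) and 2.67 in the VC(0-8h) embryo. With VC after TSA, 1 of the 3 embryos had no read on it, and the difference from control embryos was 1.16 (SE 0.78; limma, adjusted p = 0.720).

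Tbp was 0, 28.2 and 0 RPKM in the controls, 4.13, 0.0695 and 0 with TSA(0-8h) and 44.2, 0 and 3.36 with TSA(0-8h)+VC(8-15h). It was 0 and 39.3 RPKM with TSA(0-8h)+VC(0-8h), 1.16 and 0.0826 with VC(8-15h) and 8.92 in the VC(0-8h) embryo. No read was counted on Tbp in 5 of the 14 embryos and 1 read in 2, whereas the 3 reads taken as a floor were worth 0.120 to 0.539 RPKM over its 1842 counted bases. Embryos without Tbp reads and embryos above 28 RPKM stood in the control group and in both groups with TSA and VC, and the difference between TSA(0-8h)+VC(8-15h) and the controls was 0.92 (SE 2.31; limma, adjusted p = 0.937).

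Tbpl1, which encodes a TBP-like factor known from male germ cells, was 0.0641, 0.101 and 24.4 RPKM in the controls, 54.6, 0.178 and 48.1 with TSA(0-8h) and 5.20, 0.134 and 1.78 with TSA(0-8h)+VC(8-15h). It was 0 and 51.7 RPKM with TSA(0-8h)+VC(0-8h), 0.423 and 78.1 with VC(8-15h) and 0.490 in the VC(0-8h) embryo. The difference was 2.25 (SE 2.53) for TSA(0-8h) minus control (limma, adjusted p = 0.833) and -2.45 (SE 2.21) for TSA(0-8h)+VC(8-15h) minus TSA(0-8h) (limma, adjusted p = 0.702). The first ranged, leaving out 1 embryo at a time, from 1.30 without TSA(0-8h) replicate 1 to 4.08 without TSA(0-8h) replicate 2, and the second from -4.28 without TSA(0-8h) replicate 2 to -1.50 without TSA(0-8h) replicate 1. Within an embryo, Tbpl1 was above Tbp in 8 embryos, below it in 5 and level with it at 0 in 1, with a mean difference of 0.65 ± 3.24 (SD, n = 14; exact permutation test, two-sided p = 0.457, adjusted over 3 pairs p = 0.685).

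Tbpl2 was detected in a single embryo. In control replicate 3, the most deeply sequenced embryo, 149 reads gave 7.95 RPKM, and no read was counted in the other 13 embryos. In those 13 embryos the 3 reads taken as the floor were worth 0.166 to 0.720 RPKM, depending on depth. This floor covers counting error only and does not bound the level in an embryo. Tbpl2 was below Tbp in 9 embryos, above it in 1 and level with it at 0 in 4. The mean within-embryo difference was -1.55 ± 2.50 (SD, n = 14; exact permutation test over sign changes, two-sided p = 0.0332, adjusted over 3 pairs p = 0.0996), and it was -1.91 without control replicate 3. In the 13 other embryos Tbpl2 was at 0, so that no difference among them could be above 0, and no p is given for them. The p over all 14 embryos has the same limit, since its negative differences come only from embryos with reads on Tbp. No conclusion is drawn from it. Control replicate 3 had no read on Tbp.

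**Figure D4:**
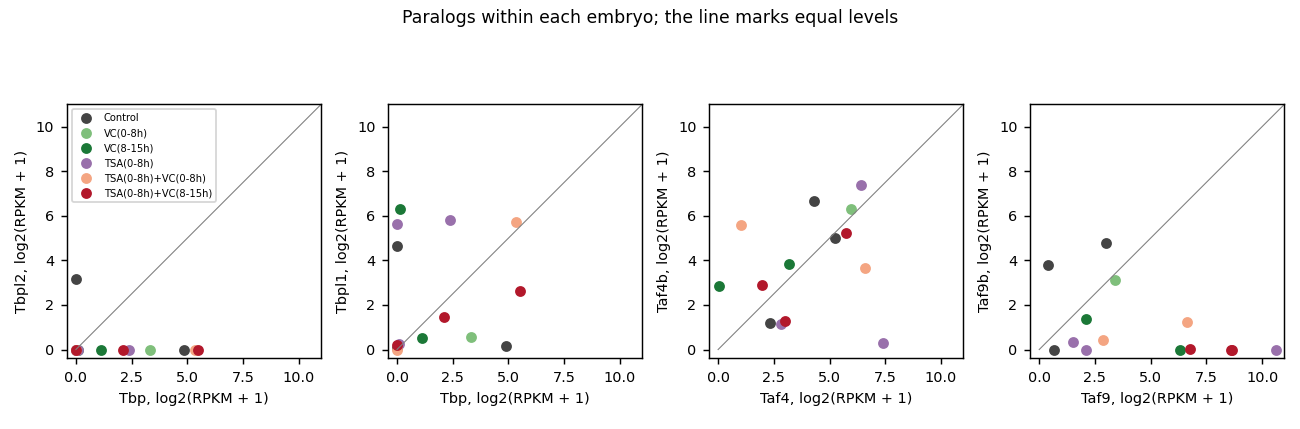
Levels of 4 paralog pairs within each of the 14 embryos, as log2(RPKM+1) on both axes; each point is 1 embryo, coloured by treatment, and the line marks equal levels. Tbpl2 lies on the horizontal axis in all but 1 embryo, Taf4b and Taf4 lie on both sides of the line, and Taf9b lies below Taf9 in 12 of 14 embryos.

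Taf9 was tested in 1 of the 5 comparisons and the 7 other genes in all 5, and none of these 36 differences passed an adjusted p of 0.05 in limma. The share of all 7518 genes tested that passed was 0% in each. At an unadjusted p under 0.05, the counts over all genes tested were 338 (4.50%) for TSA(0-8h)+VC(8-15h) minus control, 193 (2.57%) for TSA(0-8h) minus control, 304 (4.04%) for TSA(0-8h)+VC(8-15h) minus TSA(0-8h), 389 (5.17%) for VC(8-15h) minus control and 428 (5.69%) for TSA(0-8h)+VC(0-8h) minus TSA(0-8h). With limma-voom on recovered reads, 28, 18, 29, 4 and 2 genes passed the adjusted threshold in these comparisons, and none of the 7 genes other than Taf9 was among them (their smallest adjusted p under any setting was 0.174). Apart from Taf9, which was not tested where it was chosen, Taf5 in VC(8-15h) minus control was the one gene of the list with an unadjusted p under 0.05.

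**Figure D5:**
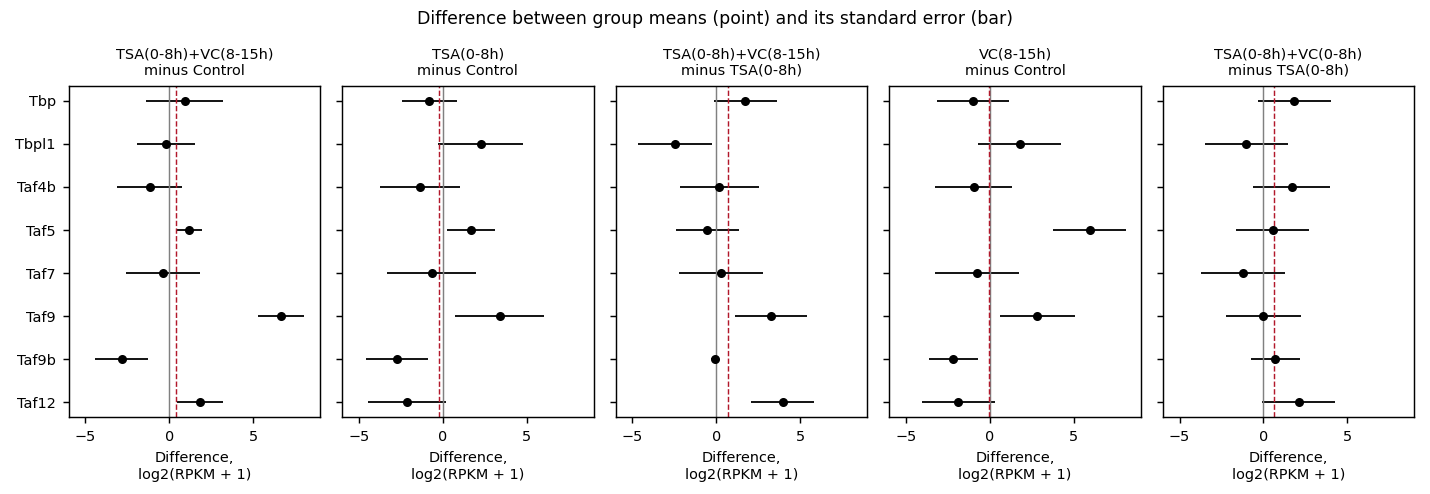
Differences between group means on the log2(RPKM+1) scale in 5 comparisons; points are the fitted differences, bars 1 standard error, the grey line 0 and the dashed line the median over all 7518 genes tested. Taf9 at 6.64 in TSA(0-8h)+VC(8-15h) minus control, which chose it, and Taf5 at 5.94 in VC(8-15h) minus control lie farthest from 0; Taf4b and Taf7 in the third panel, Taf7 in the second and Taf5 in the fifth change sign under quantile normalization.

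Between TSA(0-8h)+VC(8-15h) and the controls, the groups did not overlap for Taf9, which its choice fixed, and for 0 of the 7 other tested genes, where 11.7% of all genes tested did not overlap in either direction. No gene of the list was without overlap between TSA(0-8h) and control embryos (8.53% of all genes tested) or between TSA(0-8h)+VC(8-15h) and TSA(0-8h) embryos (11.4%). Between VC(8-15h) and control embryos it was 1 gene, Taf5 (15.7% of all genes tested), and between TSA(0-8h)+VC(0-8h) and TSA(0-8h) embryos 1 gene, Taf9b (19.2%), whose levels there were 1.33 RPKM at most. The median difference of the 7 tested genes other than Taf9 was -0.20 for TSA(0-8h)+VC(8-15h) minus control and -0.80 for TSA(0-8h) minus control, beside 0.38 and -0.24 for all genes tested. It was 0.19 for TSA(0-8h)+VC(8-15h) minus TSA(0-8h), -0.97 for VC(8-15h) minus control and 0.72 for TSA(0-8h)+VC(0-8h) minus TSA(0-8h), beside 0.71, -0.02 and 0.66. With Taf9 the median in the comparison that chose it was 0.36.

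Embryos of the same treatment differed widely in these genes. The SD within groups on the log2(RPKM+1) scale had a median of 2.57 over the 8 genes, from 1.32 for Taf9b to 3.10 for Taf7, beside 2.12 over all genes tested. Of the 9 paired genes, 3 to 7 were at 1 RPKM or more in an embryo. Taf9 was the highest of the 9 in all 3 TSA(0-8h)+VC(8-15h) embryos, on whose values it was chosen. It was also the highest in TSA(0-8h) replicate 1 and in TSA(0-8h)+VC(0-8h) replicate 2. Taf4b, Tbp, Taf12, Taf7, Taf5 or Tbpl1 was the highest in the other embryos.

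Of the 12 other TAFs and TAF paralogs, 11 were tested and none passed the adjusted threshold in any of the 5 comparisons. In TSA(0-8h)+VC(8-15h) minus control, 4 of the 11 differences were positive and 7 negative, with a median of -0.37. Taf3, which reads trimethylated lysine 4 of histone H3, was present in every embryo, at 9.10 to 177 RPKM. Taf13, a histone-fold TAF, was 145, 289 and 72.2 RPKM in the controls and 80.7, 2.79 and 6.51 RPKM with TSA(0-8h)+VC(8-15h), and its difference was -3.46 (limma, unadjusted p = 0.0242, adjusted p = 0.720). Taf8, a TFIID subunit that pairs with Taf10, was at most 1.03 RPKM in the controls and 76.9, 0.185 and 83.6 RPKM with TSA(0-8h)+VC(8-15h) (limma, adjusted p = 0.720). Taf7l, the germ cell paralog of Taf7, was at 0 in all 14 embryos.

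Of the 10 genes for TBP partners outside TFIID, 9 were tested and 0 passed the adjusted threshold in any comparison, and the median difference in TSA(0-8h)+VC(8-15h) minus control was 1.05. Dr1, which encodes a subunit of the NC2 repressor that binds TBP on DNA, was 0, 0.284 and 0.382 RPKM in the controls and 18.5, 24.0 and 97.3 RPKM with TSA(0-8h)+VC(8-15h) (difference 4.91; limma, unadjusted p = 0.0303, adjusted p = 0.720). Brf1, the TBP-binding subunit of TFIIIB for RNA polymerase III, reached 58.6 RPKM in 1 control embryo and at most 0.187 RPKM with TSA(0-8h)+VC(8-15h) (limma, adjusted p = 0.720). Taf1d and Taf1a, subunits of the TBP complex for RNA polymerase I, were the most abundant of this list, with medians of 200.8 and 47.4 RPKM over the 14 embryos.

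Among the 18 other initiation factors of RNA polymerase II, 12 were tested and 0 passed the adjusted threshold in any comparison, with a median difference of 0.10 in TSA(0-8h)+VC(8-15h) minus control. Gtf2a1, a subunit of TFIIA, which holds TBP on DNA, was the most even of those named, at 120.8 to 294.7 RPKM in the 14 embryos. Gtf2f1, the larger TFIIF subunit, ranged from 12.0 to 380.3 RPKM. Gtf2f2, its partner, was 0.126, 0.298 and 0.150 RPKM in the controls and 141, 12.9 and 62.6 RPKM with TSA(0-8h)+VC(8-15h) (difference 5.40; limma, unadjusted p = 0.0178, adjusted p = 0.720). Mnat1, a subunit of the TFIIH kinase module, was at most 0.0736 RPKM in the controls and 2.76 to 61.1 RPKM with TSA(0-8h)+VC(8-15h) (limma, adjusted p = 0.720).

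Of the 12 RNA polymerase II subunits, 11 were paired, 10 were tested and 0 passed the adjusted threshold, with a median difference of 1.19 in TSA(0-8h)+VC(8-15h) minus control. Polr2c was present in every embryo, at 2.51 to 335.6 RPKM, while Polr2f was 0.560 to 893.6 RPKM in control and 237.5 to 440.9 RPKM with TSA(0-8h)+VC(8-15h), and Polr2g reached 1 RPKM in 4 of 14 embryos. SAGA is the coactivator that shares Taf9, Taf12 and other TAFs with TFIID, and of its 14 genes outside TFIID 12 were tested and 0 passed, with a median difference of 0.32. Usp22, its ubiquitin protease, was 27.5, 1.67 and 0.414 RPKM in the controls and 44.1, 151 and 94.2 RPKM with TSA(0-8h)+VC(8-15h) (difference 4.19; limma, unadjusted p = 0.0201, adjusted p = 0.720). Atxn7l3, which activates Usp22, was 1.26 to 146.0 RPKM over the 14 embryos, and Eny2 reached 1 RPKM in 3 of them.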

How the data were processed

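From each of 14 single embryos the authors made 1 library with PCR amplification and sequenced it from a single end. After quality trimming, the authors aligned to mm9 by TopHat (TopHat2 in the submitters' processing notes), counted reads on exons of UCSC-annotated transcripts and deposited RPKM values, scaled to total counts and transcript length. Whether strand was used in counting is not given in the sources used here. Groups and replicate numbers come from the labels, and the pool of libraries from the library identifier.

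Of the 25650 entries per embryo, 25250 were paired with a symbol through the RefSeq table of GRCm38.p6, and entries of a gene were summed. RPKM values move in steps of 1 read. Reads recovered from these steps were whole, within a relative tolerance of 1e-09, for 14531 of the 14532 entries above 0 in at least 2 embryos. The recovery was tested on simulated libraries. Floors of 3 reads cover counting error only.

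Genes with at least 1 RPKM in at least 3 of the 14 embryos were tested on log2(RPKM+1) with limma (version 3.58.1, R 4.3.3; lmFit, eBayes with a trend) and Benjamini-Hochberg adjustment at 0.05. Comparisons of 3 against 3 embryos used those 6 alone, and comparisons with 2 embryos used all 14 in 1 fit of 6 groups. Differences are on the log2(RPKM+1) scale, which understates changes of low genes. The fit of TSA(0-8h)+VC(8-15h) minus control was tested on simulated data in which 200 of 7518 genes were changed. At the spread of each gene in these embryos, few changes passed the threshold. Of the genes changed by 2, 4 and 8 on this scale, 0%, 1.49% and 36.4% were called. With an SD of 0.5 for every gene, these shares were 91%, 100% and 100%. Exact permutation tests were two-sided, with smallest p of 0.1 for 3 against 3 and 0.2 for 3 against 2 embryos. Paralogs were compared by sign changes of within-embryo differences, adjusted over the 3 pairs tested. The study describes the nuclear transfers for TSA(0-8h)+VC(8-15h) as separate experiments; for the other groups the labels do not say, and p-values measure the spread between embryos.

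The members, lists and tests were chosen with earlier results of these data known. Named were all members, in each further list the 2 genes with the highest mean log2(RPKM+1) and the 2 with the smallest p in TSA(0-8h)+VC(8-15h) minus control, Taf4, Taf7l, and the 3 genes most like Taf9. Ak6 was added after its values were seen. Entries holding over 10% of a member's RPKM were shown, of which only Taf9 had 2. Alternatives were a pseudocount of 0.1, 3 other filters, a block for the replicate number, quantile normalization or median-ratio scaling, the largest entry in place of the sum, limma-voom on recovered reads, another set of embryos in the fit, and leaving out each embryo. The summed counted length was added after seeing the data. Promoter sequences are those of RefSeq (GRCm38.p6), and gene coordinates in mm9 are those of GENCODE vM1, in which the Ak6 gene also bears the name Taf9. Other steps used Python 3.11.15 (scipy 1.17.1, pandas 2.3.3, numpy 2.4.6; figures with matplotlib 3.10.9).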

Additional observations from a re-analysis of the deposited data

How the results depend on the processing

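None of the 7 tested genes other than Taf9 passed the adjusted threshold in any of the 5 comparisons under any alternative run, and neither did Taf9 in the comparison in which it was tested. Taf5 in VC(8-15h) minus control came nearest (limma, adjusted p = 0.174, among genes at 1 RPKM in every embryo of either group). Over 40 differences, 8 genes in 5 comparisons, 12 changed sign under an alternative that kept every embryo and 20 when 1 embryo was left out. The causes were not tested.

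The count of genes called, 0 in limma in each comparison, was 28, 18, 29, 4 and 2 with limma-voom on reads. For TSA(0-8h)+VC(8-15h) minus control it was 1 with the largest entry. In TSA(0-8h) minus control it was 5 with 1 RPKM in 7 of 14 embryos. In VC(8-15h) minus control it was 25 with 1 RPKM in every embryo of either group, 1 with a pseudocount of 0.1, with the largest entry or with the summed length, and 0 to 8 with 1 embryo left out, the 8 without VC(8-15h) replicate 1. The count for TSA(0-8h)+VC(0-8h) minus TSA(0-8h) was 20 with no filter, 69 with 1 RPKM in every embryo of either group, and 0 to 3 with 1 embryo left out, the 3 without TSA(0-8h)+VC(0-8h) replicate 1. Both leave 1 embryo in a group, which is then assumed to vary like the other groups.

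Deviations of embryos with the same replicate number correlated weakly and always positively, at 0.012 to 0.096. Those of embryos with different numbers correlated at -0.096 to 0.045. In every embryo of the comparisons, the replicate number was also the number of its pool of libraries, so the replicate block is a block for the pool. Whether the numbers mark any other pairing of the embryos was not tested. With the replicate block, 0 genes were called in each comparison and no tested difference of a listed gene changed its side of the threshold.

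In TSA(0-8h)+VC(8-15h) minus control, Tbpl1 was 0.51 and Taf7 0.23 with a pseudocount of 0.1, and 0.77 and 0.40 with limma-voom. Taf9 was 1.69 with the largest entry, which by mean RPKM is the one with the second start, here and in the comparisons below. With the entry of the first start it was 6.71. With 1 embryo left out, Tbp ranged from -0.56 to 2.54, Tbpl1 from -0.97 to 1.32, Taf4b from -2.72 to 0.030 and Taf7 from -2.005 to 0.91.

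In TSA(0-8h) minus control, Taf7 was 0.20 with quantile normalization and Tbp 0.71 with limma-voom. With 1 embryo left out, Tbp ranged from -1.62 to 0.82, Taf5 from -0.086 to 2.62 and Taf7 from -3.01 to 0.63.

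In TSA(0-8h)+VC(8-15h) minus TSA(0-8h), Taf4b was -1.09 with quantile normalization and -0.63 with median-ratio scaling, Taf7 -0.87 and -0.51, Taf9 -0.99 with the largest entry and Taf5 0.064 with limma-voom. With 1 embryo left out, Taf4b ranged from -1.14 to 2.40, Taf5 from -1.46 to 1.25, Taf7 from -0.99 to 2.65 and Taf9b from -0.16 to 0.015.

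In VC(8-15h) minus control, Taf9 was -0.77 with the largest entry and Tbp 0.19 with limma-voom. With 1 embryo left out, Tbp ranged from -1.82 to 0.61, Tbpl1 from -1.12 to 4.67, Taf4b from -2.52 to 0.22 and Taf7 from -3.28 to 1.79.

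In TSA(0-8h)+VC(0-8h) minus TSA(0-8h), Taf5 was -0.42 with quantile normalization and -0.38 with median-ratio scaling, and Taf9 0.18 with a pseudocount of 0.1, 0.67 over the summed length and 1.84 with limma-voom. With 1 embryo left out, Tbp ranged from -0.82 to 4.51, Tbpl1 from -3.88 to 1.83, Taf5 from -0.91 to 2.33, Taf7 from -2.49 to 1.14 and Taf9 from -1.89 to 2.91.

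In the 3 control embryos alone, Taf4b minus Taf4 was 0.34 and Taf9b minus Taf9 1.49. With 1 embryo left out, Taf4b minus Taf4 ranged from -0.56 to 0.34, and Tbpl2 minus Tbp from -1.91 to -1.24. At the spread seen between embryos, a p above the threshold does not show equal levels.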
